A study of Acomys cahirinus and Mus musculus with 6 samples.

Results

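The genes described here encode the nuclear part of oxidative phosphorylation. They were taken from the count table by symbol, as every gene whose name begins with Nduf, Uqcr, Atp5, Cox4, Cox5, Cox6, Cox7 or Cox8, together with Sdha, Sdhb, Sdhc and Sdhd. This rule found 93 of the 20381 genes in the table and used no measured value. By role, 37 of the 93 are complex I subunits, 8 complex I assembly factors, 4 complex II subunits, 8 complex III subunits, 12 complex IV subunits of broad expression, 7 complex IV isoforms of narrower expression and 17 complex V subunits.

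Oxidative phosphorylation takes place in the inner mitochondrial membrane. Complex I takes electrons from NADH and complex II from succinate, complex III passes them to cytochrome c, and complex IV hands them to oxygen, while complexes I, III and IV pump protons whose return through complex V, the ATP synthase, makes ATP. The mitochondrial genome encodes a few core subunits and the nucleus all others, and several complex IV subunits exist as paired isoforms of which one is found in most tissues and the other in muscle, lung, testis or other places.

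The cells came from healing ear punch wounds of ear pinna skin, profiled by droplet single-cell RNA sequencing of transcript 3' ends with unique molecular identifiers (UMIs), which count captured RNA molecules. Of the 6 libraries, 4 came from the spiny mouse, named acomys in the labels and described as wild-type. One spiny mouse library received an ERK inhibitor, one an ErbB2 inhibitor, one an FGFR1/2/3 inhibitor (FGFR inhibitor below) and one DMSO, the vehicle control, each injected from day 12 to day 15. The other libraries, 2 in number, came from wild-type laboratory mice, in which micro-beads soaked with recombinant FGF-2 and NRG-1 (FGF2 and NRG1 below) or with PBS as control were implanted at day 10. The sources used here give neither ages nor how many animals went into a library.

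With 1 library in each group there was no replicate to test against, and all intervals below are 95% intervals that cover counting error only. The 6 libraries held between 631 and 15363 cells and between 7429819 and 70058081 UMIs, and the smallest was the ERK inhibitor library. Of 39393 distinct cell barcodes, 184 were found in more than 1 library. The spiny mouse was counted with mouse gene symbols, and the species are therefore not compared by ratio. Cell types are the authors' deposited names, used where the leading genes of their clusters did not go against them and otherwise replaced by the cluster number. Cluster 6, deposited as resident macrophages, led with antigen presentation genes such as H2-Aa and Cd74. Cluster 7, deposited as circulating monocytes, led with neutrophil genes such as S100a8, S100a9 and Cxcr2. Cluster 38, deposited as dermal sheath or papilla, led with genes of pericytes and smooth muscle such as Acta2, Pdgfrb, Rgs5 and Des. Cluster 44, deposited as IFE basal (cycling), led with Kremen2, Sox4 and Lhx2 and is likewise given by number. Leading genes were read only in the species with more of a cluster's cells. That was the mouse for cluster 7 and the spiny mouse for clusters 6, 38 and 44. The sources used here do not say whether the members took part in the authors' clustering.

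Of the 93 genes, 88 had at least 1 UMI in all 6 libraries, and together they held 6798748 UMIs. Atp5d, the delta subunit of complex V, and Ndufb1-ps, a complex I gene annotated in GENCODE vM21 as a non-coding RNA, had 0 UMIs in every spiny mouse library. Atp5d had 15663 UMIs in the FGF2 and NRG1 library and 11149 in the PBS library, and Ndufb1-ps had 6520 in the FGF2 and NRG1 library and 5348 in the PBS library. Cox8c, an isoform known from testis, had 0 UMIs in both mouse libraries. Uqcrb, a small complex III subunit, and Ndufb9, a complex I accessory subunit, were well counted in the mouse, with 13982 and 15703 UMIs in the FGF2 and NRG1 library. In the spiny mouse Uqcrb had 19 UMIs in the ERK inhibitor library and 124 in the DMSO library, and Ndufb9 had 40 in the ERK inhibitor library and 141 in the DMSO library. Why these genes were low in the spiny mouse was not tested, and the sources used here do not name the reference its reads were aligned to.

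The members made up 2.93% of all UMIs in the ERK inhibitor library, 3.12% in the ErbB2 inhibitor library, 2.95% in the FGFR inhibitor library and 3.13% in the DMSO library. In the mouse they made up 2.70% in the FGF2 and NRG1 library and 2.75% in the PBS library. These totals mix cell types, which differed more from each other than the libraries did.

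Isoform pairs carry several of the results below, and 2 such pairs are shown by sequence, since how far the partners differ bears on how their reads are told apart. The stretches are the last part of the longest coding sequence in GENCODE vM21 (mouse build GRCm38), each ending with its stop codon, and capitals mark the bases that differ from the aligned partner or face a gap in it. Cox6a2, the heart and skeletal muscle isoform of complex IV subunit 6A, lies on the minus strand of chromosome 7 with this stretch within chr7:128205729-128206227, and Cox6a1, its widely expressed partner, on the minus strand within chr5:115345843-115348851. Over 240 aligned columns they share 150 bases, an identity of 62.5%.
Cox6a2: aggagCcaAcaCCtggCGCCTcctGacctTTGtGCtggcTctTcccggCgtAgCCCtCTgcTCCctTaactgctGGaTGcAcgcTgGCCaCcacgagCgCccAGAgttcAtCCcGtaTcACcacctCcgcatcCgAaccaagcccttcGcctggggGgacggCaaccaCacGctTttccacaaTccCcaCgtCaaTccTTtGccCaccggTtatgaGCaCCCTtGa
Cox6a1: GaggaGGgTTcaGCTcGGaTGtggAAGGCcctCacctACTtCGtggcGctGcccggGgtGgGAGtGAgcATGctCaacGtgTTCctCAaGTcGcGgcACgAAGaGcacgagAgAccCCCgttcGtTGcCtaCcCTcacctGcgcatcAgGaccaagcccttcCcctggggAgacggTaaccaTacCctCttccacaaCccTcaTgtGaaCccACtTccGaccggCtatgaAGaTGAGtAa
Ndufa4l2 lies on the plus strand within chr10:127515006-127516499 and is known as a paralog induced by low oxygen. Ndufa4, long listed under complex I and now assigned to complex IV, lies on the minus strand within chr6:11900535-11907342. They share 155 of 240 columns, or 64.6%.
Ndufa4l2: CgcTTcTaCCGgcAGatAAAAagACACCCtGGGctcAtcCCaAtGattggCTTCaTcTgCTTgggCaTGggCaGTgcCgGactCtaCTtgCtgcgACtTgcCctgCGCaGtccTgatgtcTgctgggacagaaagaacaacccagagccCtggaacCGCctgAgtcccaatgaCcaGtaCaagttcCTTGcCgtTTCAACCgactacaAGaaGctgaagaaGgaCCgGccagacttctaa
Ndufa4: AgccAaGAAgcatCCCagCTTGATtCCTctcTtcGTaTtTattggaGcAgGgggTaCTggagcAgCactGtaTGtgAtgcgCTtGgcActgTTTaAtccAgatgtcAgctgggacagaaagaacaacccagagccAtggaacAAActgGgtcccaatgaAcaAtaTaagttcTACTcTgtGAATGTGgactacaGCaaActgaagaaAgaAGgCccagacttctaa
The differences are spread along both pairs and leave runs of identical bases, such as the one shared by Ndufa4l2 and Ndufa4 in the middle of the stretch. Libraries of this kind are read near the transcript's 3' end, which for these genes also includes bases after the stop codon that are not shown.

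Sebaceous gland cells held the largest share of oxidative phosphorylation UMIs of any cell class in all 6 libraries. The members made up 4.81% of sebaceous UMIs in the ERK inhibitor library, 5.27% in the ErbB2 inhibitor library, 5.33% in the FGFR inhibitor library and 5.04% in the DMSO library. In the mouse they made up 5.24% with FGF2 and NRG1 and 5.24% with PBS. The class with the next highest share was IFE basal (cycling), the dividing basal cells of the interfollicular epidermis, at 3.66% in the ERK inhibitor library and 3.10% in the PBS library. It was the fibroblasts at 3.43% in the ErbB2 inhibitor library and 3.32% in the FGFR inhibitor library, cluster 38 at 3.42% in the DMSO library and cluster 44 at 3.60% in the FGF2 and NRG1 library. Cluster 7 had the lowest share in 5 libraries, and IFE suprabasal, the differentiating epidermal layers, the lowest in the DMSO library at 2.54%.

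**Figure D1:**
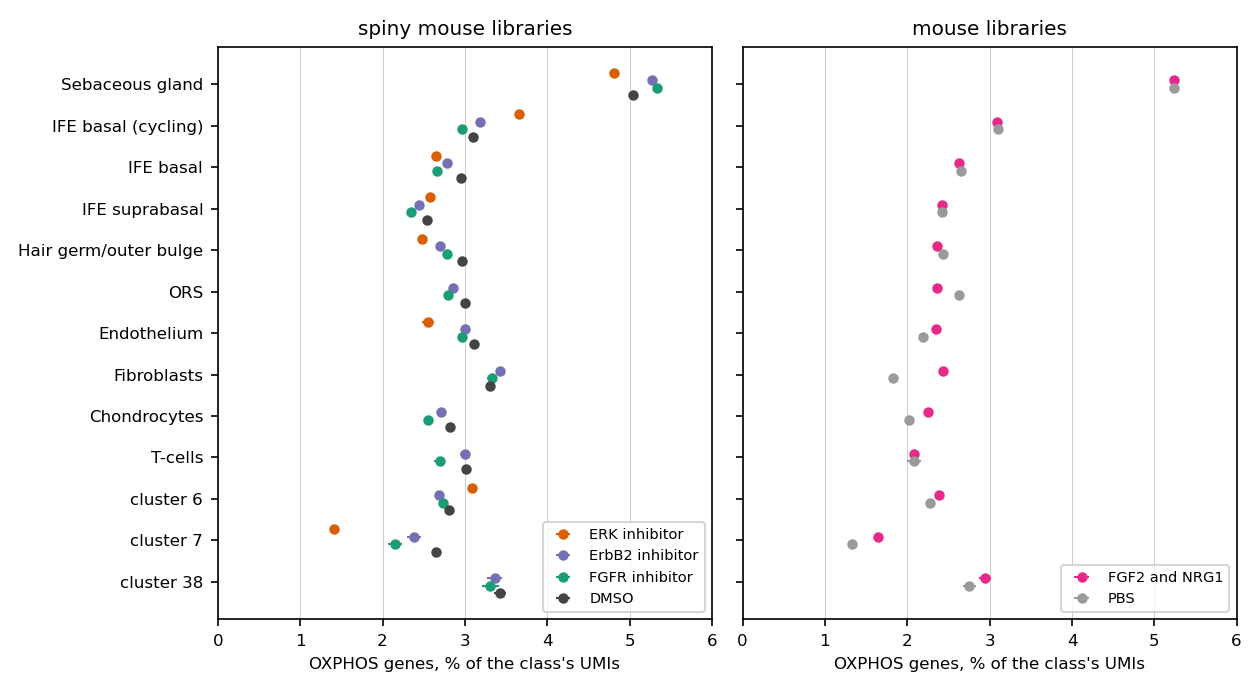
Share of a class's UMIs that fell on the 93 oxidative phosphorylation genes (x axis, percent) for selected cell classes (y axis), with spiny mouse libraries in the left panel and mouse libraries in the right; each point is 1 library and the bars are exact 95% binomial intervals. The sebaceous points lie between 4.81% and 5.33%, right of every other class, and cluster 7 of the ERK inhibitor library lies at 1.41%.

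Sebaceous cells stayed at the top when single genes or deep cells were given less weight. Without Atp5g2, Cox4i1 and Atp5g3, the 3 members with most UMIs, sebaceous cells still had the highest share in all 6 libraries, between 4.27% and 4.80%. The mean over cells was also highest in sebaceous cells in all 6, between 3.71% and 4.58%. The median over cells was highest there in 5 libraries, and in the ERK inhibitor library it was 3.39% in sebaceous cells against 3.47% in cycling basal cells.

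Sebocytes make and store lipid, and the lipid enzyme gene Fasn was higher in this class than in keratinocytes in every library. So were Mgst1 and the sebaceous duct keratin Krt79. Scaled to 1000000 UMIs per class (CPM), Fasn had 1325 CPM in sebaceous cells and 57.2 CPM in keratinocytes of the DMSO library. Scd1, a desaturase that defines mouse sebocytes, had 6510 CPM in FGF2 and NRG1 sebaceous cells and 7008 CPM in PBS sebaceous cells but 2.55 to 3.90 CPM in those of the spiny mouse libraries. The class is not uniform. Its clusters ran, in the DMSO library, from 3.58% in cluster 18 over 3.81% in cluster 4 and 5.28% in cluster 20 to 5.94% in cluster 36. Cluster 18 was also the lowest and cluster 36 the highest in the ErbB2 inhibitor library, at 3.28% and 6.62%, and in the FGFR inhibitor library, at 3.21% and 6.52%. In the mouse, cluster 42 had 5.46% with FGF2 and NRG1 and 5.38% with PBS, whereas cluster 4 had 2.39% with FGF2 and NRG1 and 2.92% with PBS. The 10 leading genes of clusters 18, 20 and 36 held no marker of the hair follicle and sebocyte list used, while those of cluster 4 held 1 and those of cluster 42 held 2. Cluster 36 nonetheless led with genes such as Awat1, Awat2, Soat1 and Cidea, and cluster 20 with genes such as Plin2 and Cers4. Soat1, Plin2 and Cers4 were also leading genes of cluster 4, and Cidea and Cers4 of cluster 42. Cluster 18 shared no leading gene with clusters 4 and 42.

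Set against keratinocytes of the same library, most members were higher in sebaceous cells, one by one. Keratinocytes here are the IFE basal, cycling and suprabasal cells together. A gene was called past 1.5-fold on the log2 ratio of CPM, computed with 1 UMI added to each count, where both classes together had at least 30 UMIs. In the ERK inhibitor library 62 of 82 measured members were called higher, with a median log2 ratio of 0.80, while 25.7% of all genes tested were called higher and their median was 0.12. In the ErbB2 inhibitor library 76 of 87 were higher (median 1.02), against 20.3% of all genes. In the FGFR inhibitor library 75 of 87 were higher (median 1.07), against 21.7% of all genes, and in the DMSO library 68 of 87 (median 0.82), against 18.6%. In the mouse, 72 of 88 were higher with FGF2 and NRG1 (median 0.95), against 19.8% of all genes, and 73 of 88 with PBS (median 0.93), against 18.8%. Across all 6 libraries at once, 53 of the 82 members measured in each were called higher, and so were 7.62% of the 7091 genes measured in each. Of the 82, 80 had a ratio above 0 in every library. The clusters were drawn on these same cells, so the contrast is a description of the class and no test of it.

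**Figure D2:**
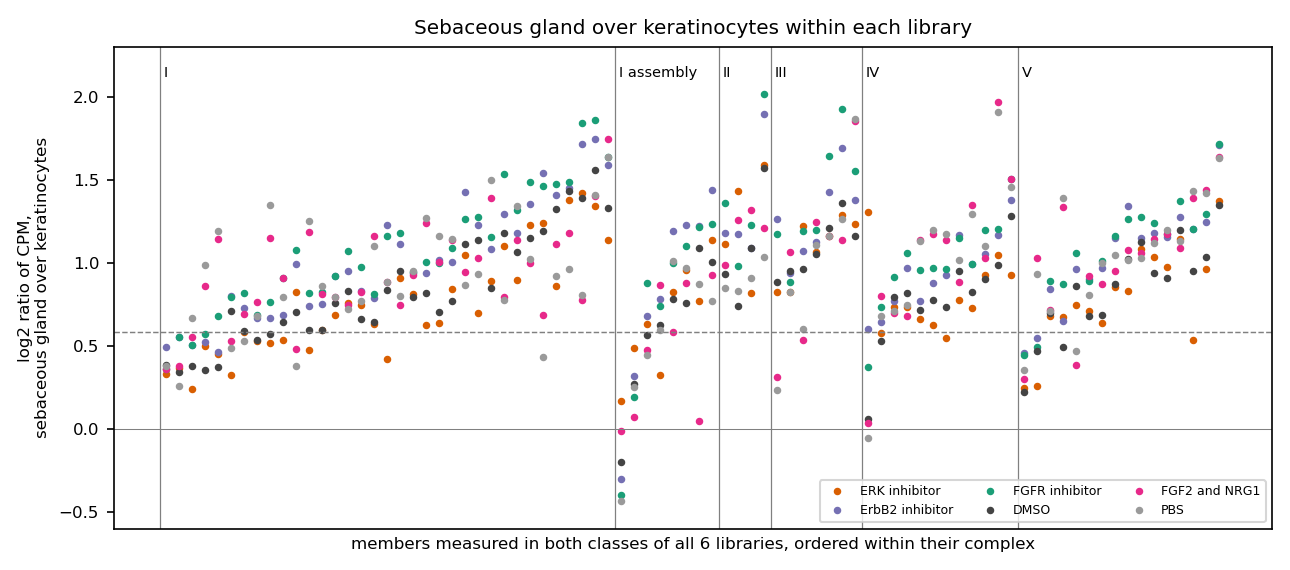
Log2 ratio of CPM in sebaceous gland over keratinocytes (y axis) for each of the 82 members measured in all 6 libraries, ordered within complexes (x axis), with 1 coloured point per library and a dashed line at 1.5-fold. Most points lie above the dashed line in every complex, and Ndufaf7 at the left of the assembly factors lies at or below 0 in 5 libraries.

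All complexes took part. Of the complex I subunits, 21 of 35 measured were called higher in all 6 libraries, with a median log2 ratio of 0.89. All 4 complex II subunits were, with a median of 1.08, as were 5 of 7 complex III subunits (1.12), 9 of 12 complex IV subunits (0.94) and 11 of 16 complex V subunits (1.03). The complex I assembly factors, which help build the enzyme but are not part of it, had 3 of 8 (0.80).

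Atp5g3, which encodes a copy of the membrane ring subunit c of ATP synthase, had 2580 CPM in sebaceous cells and 994 CPM in keratinocytes of the ERK inhibitor library. In sebaceous cells it had 2882 CPM with the ErbB2 inhibitor, 3020 with the FGFR inhibitor and 2888 with DMSO, against 882 CPM in ErbB2 inhibitor keratinocytes, 918 in FGFR inhibitor keratinocytes and 1135 in DMSO keratinocytes. In mouse sebaceous cells it had 849 CPM with FGF2 and NRG1 and 850 CPM with PBS, against 272 CPM in FGF2 and NRG1 keratinocytes and 274 CPM in PBS keratinocytes. Sebaceous cells were higher in every library, and the log2 ratios ran from 1.35 in the DMSO library to 1.72 in the FGFR inhibitor library. Atp5g2, which encodes the same protein subunit, had a median ratio of only 0.33.

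Sdhb, the iron-sulfur subunit of complex II, had 238 CPM in ERK inhibitor, 294 in ErbB2 inhibitor, 271 in FGFR inhibitor and 267 in DMSO sebaceous cells. The keratinocytes had 79.3 CPM with the ERK inhibitor, 78.9 with the ErbB2 inhibitor, 67.2 with the FGFR inhibitor and 89.8 with DMSO. In the mouse the sebaceous cells had 370 CPM with FGF2 and NRG1 and 364 CPM with PBS, against 160 CPM in FGF2 and NRG1 keratinocytes and 178 CPM in PBS keratinocytes. Its log2 ratio was above 1 in all 6 libraries, from 1.03 in the PBS library to 2.01 in the FGFR inhibitor library. Uqcrq, a small complex III subunit, reached 1.86 (interval 1.79 to 1.92) with FGF2 and NRG1 and 1.86 (1.80 to 1.93) with PBS, and 1.16 in the DMSO library. Ndufab1, the mitochondrial acyl carrier protein that is also a complex I subunit, ranged from 1.14 to 1.75. Ndufs1, the large iron-sulfur subunit of complex I, ranged from 0.96 in the PBS library to 1.49 in the FGFR inhibitor library, and Atp5b, the catalytic beta subunit of complex V, from 1.09 to 1.37.

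At the other end, Ndufaf7, a methyltransferase that acts in complex I assembly, had a median ratio of -0.25 and was above 0 only in the ERK inhibitor library, where it had 10 sebaceous UMIs. Cox7a2l, which takes part in joining complexes III and IV, had a median of 0.22 and was at 0.04 with FGF2 and NRG1 and -0.05 with PBS, although it reached 1.31 in the ERK inhibitor library on 19 sebaceous UMIs.

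Genes outside the rule but of the same pathway were read in the same way. Of 14 carriers and cytochrome c genes measured, 7 were higher in sebaceous cells in all 6 libraries (median 0.97), as were 10 of 12 citric acid cycle genes (1.15). Of 29 other assembly factors 5 were (0.57), and of 11 regulators 1 was (0.19). Of the 13 mitochondrially encoded genes, mt-Nd4l, a small complex I subunit, was the only one measured in all 6 libraries, and it was higher in sebaceous cells in all 6 (median 1.31). The other 12 had UMIs in the mouse only, where the 13 together made up 8.34% of sebaceous UMIs with FGF2 and NRG1 and 9.82% with PBS, against 4.48% of keratinocyte UMIs with FGF2 and NRG1 and 4.75% with PBS.

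Within the epidermis the class shares followed one order in all 6 libraries, with the highest share in cycling basal cells, a lower one in other basal cells and the lowest in suprabasal cells. Cycling basal cells had 3.66% in the ERK inhibitor library, 3.18% in the ErbB2 inhibitor library, 2.96% in the FGFR inhibitor library and 3.10% in the DMSO library, and other basal cells had 2.65%, 2.79%, 2.66% and 2.95% in the same order of libraries. Suprabasal cells had 2.58% with the ERK inhibitor, 2.44% with the ErbB2 inhibitor, 2.35% with the FGFR inhibitor and 2.54% with DMSO. With FGF2 and NRG1 cycling basal cells had 3.09%, other basal cells 2.63% and suprabasal cells 2.42%, and with PBS cycling basal cells had 3.10%, other basal cells 2.66% and suprabasal cells 2.42%. The gap between cycling and other basal cells was widest in the ERK inhibitor library, where 33 cells were cycling and 92 were other basal cells. Single clusters did not all keep this order. In the DMSO library cluster 16, of the basal class, had 3.40% and cluster 19, of the cycling class, 2.99%, and in the ErbB2 inhibitor library cluster 9, of the suprabasal class, had 2.94%, above the 2.79% of the basal class. Clusters 13, 21 and 46, deposited as suprabasal but given by number, had 2.84%, 2.98% and 2.88% in the DMSO library, and they are not in the suprabasal shares above.

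The next question is how each treatment moved the members within a cell class. The 3 inhibitor comparisons share the DMSO library, so they are given side by side and are not independent. In keratinocytes the members' medians lay between -0.17 and -0.02 in the 4 comparisons, and few members passed 1.5-fold. Median depth was 14936 UMIs per cell with the ERK inhibitor, 6338.5 with the ErbB2 inhibitor, 8280 with the FGFR inhibitor and 4262 with DMSO. In mouse keratinocytes it was 8950.5 with FGF2 and NRG1 and 11117 with PBS. With the ERK inhibitor (266 cells against 7388 DMSO cells) 1 of 87 measured members was called lower and 9 higher, while 12.5% of all genes were called lower and 11.1% higher. Their median log2 ratio was -0.03 and that of all genes -0.0046. With the ErbB2 inhibitor (4442 cells) 1 of 88 was lower and 0 were higher, against 13.0% and 6.15% of all genes, with medians of -0.12 for the members and -0.10 for all genes. With the FGFR inhibitor (2203 cells) 2 of 87 were lower and 1 was higher, against 9.79% and 4.80% of all genes, with medians of -0.17 and -0.08. The shift with the FGFR inhibitor was small but mostly one way, with 83 of 87 members below 0, against 60.8% of all genes, and with 81 of 85 below 0 in suprabasal cells, against 58.2% of all genes. With FGF2 and NRG1 (934 cells against 1005 PBS cells) 0 of 88 were called in either direction, against 3.92% lower and 4.18% higher among all genes, with a median of -0.02 for the members and for all genes. The members' shares of calls were below those of all genes in each comparison except the ERK inhibitor's higher calls, which were near theirs. A gene of few UMIs passes a fixed fold more easily by counting error alone, and these shares were not matched on counts.

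**Figure D3:**
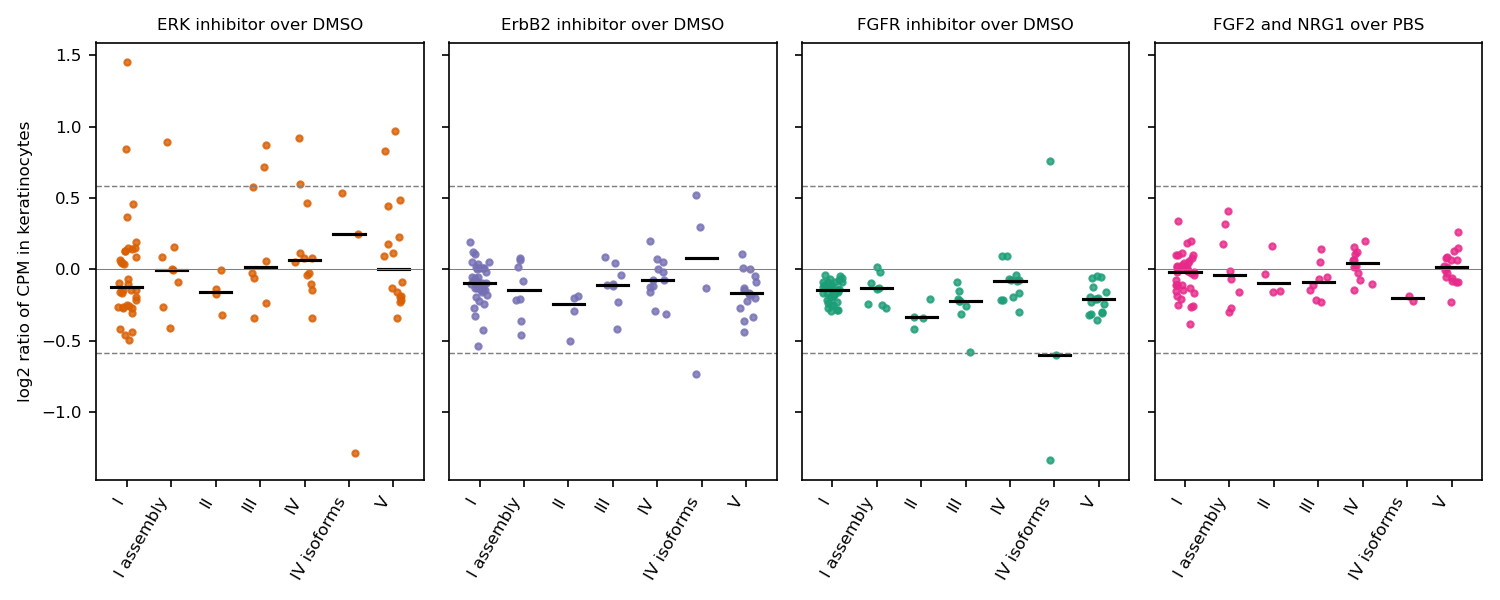
Log2 ratio of CPM of treated over control keratinocytes (y axis) for each measured member, grouped by complex (x axis), with 1 panel per comparison, black bars at the group medians and dashed lines at 1.5-fold in each direction. The FGF2 and NRG1 points stay within the dashed lines, and the ERK inhibitor panel has 9 points above the upper line.

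Core members show how small the shifts in keratinocytes were, since none of those that follow passed 1.5-fold in any of the 4 comparisons. In the catalytic head of ATP synthase, Atp5a1 had log2 ratios of 0.12 with the ERK inhibitor, -0.33 with the ErbB2 inhibitor, -0.21 with the FGFR inhibitor and 0.09 with FGF2 and NRG1. Its partner Atp5b had -0.22 with the ERK inhibitor, -0.44 with the ErbB2 inhibitor, -0.31 with the FGFR inhibitor and 0.02 with FGF2 and NRG1. Atp5a1 and Atp5b were thus both below 0 with the ErbB2 and FGFR inhibitors, and their intervals there lay below 0 too. In complex III, Uqcrc1 was at -0.24 with the ERK inhibitor, -0.42 with the ErbB2 inhibitor, -0.31 with the FGFR inhibitor and -0.22 with FGF2 and NRG1. Uqcrfs1, the Rieske iron-sulfur protein of the same complex, stayed nearer to 0, at 0.06 with the ERK inhibitor, 0.09 with the ErbB2 inhibitor, -0.09 with the FGFR inhibitor and 0.14 with FGF2 and NRG1. In complex I, Ndufs1 was below 0 in all 4 comparisons, from -0.33 with the ErbB2 inhibitor to -0.15 with the ERK inhibitor, where its interval reached from -0.39 to 0.07. Ndufv1, the subunit that takes electrons from NADH, was between -0.15 and 0.14, and Ndufaf1, an assembly factor, between -0.36 with the ErbB2 inhibitor and 0.18 with FGF2 and NRG1. Cox5a was at -0.34 with the ERK inhibitor and between -0.07 and 0.12 in the other 3 comparisons, and Cox5b was between -0.17 and 0.08 in all 4.

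With the ERK inhibitor the members called higher were mostly small subunits. Atp5e, the epsilon subunit of complex V, had 235 CPM in ERK inhibitor keratinocytes and 120 CPM in DMSO keratinocytes, a log2 ratio of 0.97 (interval 0.87 to 1.06). Cox8a, a small subunit of complex IV, had 140 CPM with the ERK inhibitor and 74.5 CPM with DMSO (0.92, interval 0.79 to 1.04). Uqcr11, a small complex III subunit, had 295 CPM with the ERK inhibitor and 161 CPM with DMSO (0.87). Atp5mpl, Ndufb2, Ndufaf8 and Cox7c, named here after their values were seen, had ratios of 0.83, 0.85, 0.89 and 0.60. The 2 others, Ndufb9 at 1.45 with 24 ERK inhibitor UMIs against 83 DMSO UMIs and Uqcrb at 0.72 with 11 ERK inhibitor UMIs against 66 DMSO UMIs, are the poorly counted ones named above, and the interval of Uqcrb reached from -0.46 to 1.54. The member called lower was Cox6b2, a complex IV isoform known from testis, with 4 UMIs with the ERK inhibitor against 111 with DMSO (-1.29, interval -3.50 to -0.20). The lowest members of better count were Ndufs8, an iron-sulfur subunit of complex I, with 185 CPM in ERK inhibitor and 261 CPM in DMSO keratinocytes (-0.49), and Ndufa2, an accessory subunit, with 96.4 CPM in ERK inhibitor and 133 CPM in DMSO keratinocytes (-0.46).

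The shorter members had the higher ratios with the ERK inhibitor. The cut of 600 nucleotides in the longest coding transcript was chosen after the values were seen. In keratinocytes the 16 members below it had a median log2 ratio of 0.31 and the 70 others -0.09, with a Spearman correlation of -0.23 across these 86 genes, which share libraries and are not replicates. Among all genes tested, the 120 short ones had a median of 0.0056 and the rest -0.0052, with a correlation of 0.04. In sebaceous cells the 14 short members had a median of 0.36 and the others -0.14, and in endothelium 13 short members had 0.21 and the others -0.38. With the ErbB2 inhibitor the medians in keratinocytes were -0.06 for short members and -0.12 for others, and with the FGFR inhibitor -0.22 and -0.16. With FGF2 and NRG1 they were -0.15 for short members and 0.0088 for the others. The correlation with length was not particular to the ERK inhibitor. In keratinocytes it was -0.31 with the ErbB2 inhibitor, -0.12 with the FGFR inhibitor and 0.14 with FGF2 and NRG1. In sebaceous cells it was -0.24 with the ERK inhibitor, -0.31 with the ErbB2 inhibitor, -0.45 with the FGFR inhibitor and 0.35 with FGF2 and NRG1. In endothelium it was -0.41 with the ERK inhibitor, -0.37 with the ErbB2 inhibitor, -0.22 with the FGFR inhibitor and 0.07 with FGF2 and NRG1. Among all genes tested the correlation with length varied too. In the same order of comparisons it was 0.04, -0.01, 0.07 and -0.13 in keratinocytes. It was 0.16, -0.13, -0.05 and -0.13 in sebaceous cells and 0.29, 0.05, 0.18 and -0.26 in endothelium. Whether RNA quality or library preparation had a part in this was not tested.

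**Figure D4:**
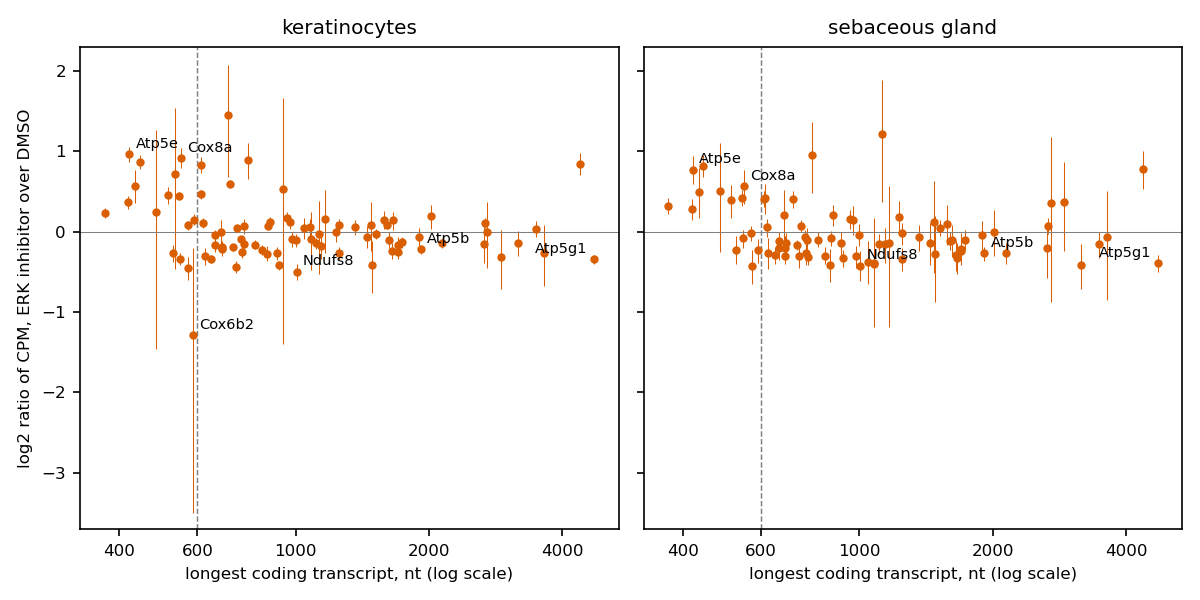
Log2 ratio of CPM, ERK inhibitor over DMSO (y axis), against the length of each member's longest coding transcript in nucleotides (x axis, log scale) in keratinocytes (left) and sebaceous gland (right), with exact 95% intervals as bars and a dashed line at 600. Members left of the line have a median of 0.31 in keratinocytes and 0.36 in sebaceous cells.

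Of the 7 better counted members called higher in ERK inhibitor keratinocytes, Cox8a was above 0 in 8 of 8 classes with a median log2 ratio of 0.88, as were Atp5mpl (0.54) and Cox7c (0.44), and Ndufaf8 (0.78) was above 0 in the 7 classes where it was measured. Atp5e (0.83) and Ndufb2 (0.65) were above 0 in 7 of 8 classes, and Uqcr11 (0.54) in 6 of 8. Of the members not called in keratinocytes, Uqcr10, a small complex III subunit, was above 0 in all 7 classes where it was measured (0.64). Atp5g1, another copy of subunit c, was below 0 in 8 of 8 classes with a median of -0.58. Cox5a, a nuclear complex IV subunit, and the complex I accessory subunits Ndufa2 and Ndufb10 were also below 0 in 8 of 8, with medians of -0.50, -0.52 and -0.40. Of the 72 members measured in all 8 classes, 4.17% were above 0 in all of them and 12.5% below 0 in all, near the 3.79% and 11.1% of the 2056 genes measured in all 8. The keratinocytes in which the 7 members were called higher are the cells of IFE basal, IFE basal (cycling) and IFE suprabasal. Their signs in those classes, which are among the 8, therefore follow largely from how the members were picked. All 8 classes are read from the same pair of libraries, so they are not replicates of the treatment.

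Other classes of the ERK inhibitor library moved in different directions, on few cells. Median depth was 16582 UMIs per cell in ERK inhibitor and 4527 in DMSO cycling basal cells. In endothelium it was 3365.5 with the ERK inhibitor and 1769 with DMSO. In cycling basal cells (33 against 1344) 15 of 83 members were called higher and 0 lower, while 17.1% of all genes were called higher and 14.9% lower. Keratinocyte markers made up under 1% of UMIs in 12 of these ERK inhibitor cells and in 6 of the DMSO cells. The part of those cells in the result was not tested. The members' median was 0.26 and that of all genes 0.05, and the members' median came to 0.09 with the clusters weighted as in the DMSO library. In endothelium (44 against 977 cells) 24 of 82 members were lower and 5 higher, while 18.6% of all genes were lower and 33.3% higher, with medians of -0.25 and 0.23. Atp5b had 306 CPM in ERK inhibitor endothelium and 716 CPM in DMSO endothelium (-1.20, interval -1.63 to -0.85), whereas Cox8a had 150.4 CPM in ERK inhibitor and 79.7 CPM in DMSO endothelium (0.96). The keratinocyte marker list summed to 0.20% of UMIs in ERK inhibitor endothelium and 3.76% in DMSO endothelium, and their part in these ratios was not tested.

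The lowest values were in cluster 7. The members made up 1.41% of UMIs in its 55 ERK inhibitor cells and 2.65% in its 227 DMSO cells. Median depth was 5167 UMIs per cell in the ERK inhibitor cells and 1192 in the DMSO cells. Of 72 measured, 53 were called lower and 1 higher, while 44.9% of all genes were lower and 25.7% higher, and the medians were -1.03 for the members and -0.39 for all genes. Lower calls fell on 28 of 35 complex I subunits, 4 of 6 complex III subunits, 7 of 11 complex IV subunits and 13 of 16 complex V subunits, but on 1 of 3 complex II subunits. Atp5b had 24 UMIs with the ERK inhibitor and 192 with DMSO (-2.69), and Atp5g1 had 25 with the ERK inhibitor and 205 with DMSO (-2.73). Cox5b, a nuclear complex IV subunit, went the other way with 294 UMIs with the ERK inhibitor and 238 with DMSO (0.56). The 14 keratinocyte markers summed to 0.15% of UMIs in the ERK inhibitor cells of this cluster and 5.54% in its DMSO cells, and the 7 neutrophil markers summed to 28.2% in the ERK inhibitor cells and 3.11% in the DMSO cells. The neutrophil markers Retnlg and Ly6g were at 0 in both. No DMSO cell of this cluster had under 1% keratinocyte markers, so the class could not be compared without them, and a change of the members and a change in what the cells hold cannot be told apart.

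With the ErbB2 inhibitor several members with low ratios in keratinocytes shifted by small amounts. Ndufa2 had 91.5 CPM with the ErbB2 inhibitor and 133 CPM with DMSO (-0.53). Sdha, the flavoprotein of complex II, had 13.6 CPM with the inhibitor and 19.4 CPM with DMSO (-0.50, interval -0.67 to -0.34). Atp5b had 565 CPM with the inhibitor and 764 CPM with DMSO (-0.44), and Uqcrc1, a core protein of complex III, had 166 CPM with the inhibitor and 222 CPM with DMSO (-0.42). None of these passed 1.5-fold, and the median of all genes was itself -0.10. Ndufa4 was the highest of the members over 100 UMIs with 570 CPM with the ErbB2 inhibitor and 497 CPM with DMSO (0.20), followed by Ndufa3, a complex I accessory subunit, at 0.19. The member called lower was Cox6b2, with 56 UMIs with the ErbB2 inhibitor and 111 with DMSO (-0.73).

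Across 21 classes of the ErbB2 inhibitor library, Atp5b, Ndufs3, a core complex I subunit, and Cox7b, a complex IV subunit, were below 0 in all 21, with median log2 ratios of -0.40, -0.41 and -0.24. Ndufa3 and Atp5g2 were above 0 in 20 of 21, with medians of 0.37 and 0.18. Of the 68 members measured in all 21 classes, 4.41% were below 0 in all of them, near the 4.34% of all genes so measured. In sebaceous cells (1404 in each library) 0 of 85 members were called in either direction, against 8.31% lower and 3.76% higher among all genes, and the medians were 0.06 and -0.03. Ndufa3 was there at 306 CPM with the ErbB2 inhibitor and 216 CPM with DMSO (0.50), and Atp5b at 1372 CPM with the ErbB2 inhibitor and 1752 CPM with DMSO (-0.35).

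With the FGFR inhibitor the complex II subunits had the lowest median of the 5 complexes in keratinocytes, at -0.33, as they had with the ErbB2 inhibitor at -0.25. Sdhb had 67.2 CPM with the FGFR inhibitor and 89.8 CPM with DMSO (-0.42), Sdhd, a membrane anchor of the complex, had 100.2 CPM with the inhibitor and 126 CPM with DMSO (-0.33), and Sdha had 15.3 CPM with the inhibitor and 19.4 CPM with DMSO (-0.34). In suprabasal cells Sdhb had 19.0 CPM with the inhibitor and 34.6 CPM with DMSO (-0.86, interval -1.10 to -0.64). In basal cells it had 117 CPM with the inhibitor and 125 CPM with DMSO (-0.10, interval -0.22 to 0.02). The difference between the layers was not tested. The members called were all isoforms of low count, Cox7a1 with 10 FGFR inhibitor UMIs against 53 DMSO UMIs (-1.33), Cox6b2 with 37 FGFR inhibitor against 111 DMSO UMIs (-0.60) and Ndufa4l2 with 32 FGFR inhibitor against 37 DMSO UMIs (0.76). In sebaceous cells (607 against 1404) 0 of 83 members were called, against 8.23% lower and 3.50% higher among all genes, with medians of 0.06 and -0.05. Across the 19 classes measured in both libraries, Atp5c1, the gamma subunit of complex V, was below 0 in all 19 (median -0.22) and Atp5b in 18 (-0.29). Of the 53 members measured in all 19 classes, 1.89% were below 0 in all of them, against 3.56% of all genes so measured.

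Lower medians with the FGFR inhibitor were found in some immune and dermal classes, each of few cells. In B-cells (59 against 91 cells) 13 of 53 members were called lower and 0 higher, while 16.5% of all genes were lower and 13.8% higher, with medians of -0.31 for the members and -0.04 for all genes. In cluster 7 (89 against 227 cells) 16 of 68 were lower and 2 higher, while 21.7% of all genes were lower and 24.8% higher, with medians of -0.27 and 0.02. In cluster 34 (59 against 136 cells), deposited as fibroblasts, 11 of 68 were lower and 1 higher, while 14.1% of all genes were lower and 16.1% higher, with medians of -0.22 and 0.02. The lower calls in clusters 7 and 34 were thus near the share of all genes. Cox5a had 43 UMIs in FGFR inhibitor B-cells and 118 in DMSO B-cells (-0.63, interval -1.19 to -0.14), and Atp5b had 35 UMIs in FGFR inhibitor cells of cluster 7 and 192 in its DMSO cells (-0.78, interval -1.38 to -0.29). The keratinocyte markers summed to 3.31% of UMIs in FGFR inhibitor B-cells and 6.12% in DMSO B-cells, to 3.10% in FGFR inhibitor and 5.54% in DMSO cells of cluster 7, and to 2.10% in FGFR inhibitor and 4.83% in DMSO cells of cluster 34. Neutrophil markers made up 5.78% in FGFR inhibitor and 3.11% in DMSO cells of cluster 7. The part of these marker shifts in the members' values was not tested.

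With FGF2 and NRG1 the ratios in mouse keratinocytes were the narrowest, from -0.38 to 0.41. Ndufa3 was the lowest with 85.5 CPM with FGF2 and NRG1 and 111 CPM with PBS, and it was below 0 in 15 of 17 classes (median -0.31). Ndufs4, an accessory subunit whose loss causes a mitochondrial disease in mice, had 99.0 CPM with FGF2 and NRG1 and 78.3 CPM with PBS (0.34, interval 0.20 to 0.47). Cox5a was at 0.12 and Atp5b at 0.02. In sebaceous cells (233 against 188) 0 of 87 members were called, against 5.15% lower and 4.86% higher among all genes, and the members' median was 0.0017.

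Mouse fibroblasts and cluster 7 had higher members' medians than all genes, while their higher calls were near the share of all genes. In fibroblasts (153 against 32 cells) 18 of 86 members were called higher and 1 lower, while 17.8% of all genes were higher and 29.1% lower, with medians of 0.35 for the members and -0.15 for all genes. The share was 2.43% with FGF2 and NRG1 and 1.83% with PBS. Median depth was 11177 UMIs per cell with FGF2 and NRG1 and 4203 with PBS. Higher calls fell on 10 of 37 complex I subunits, 4 of 12 complex IV subunits and 3 of 17 complex V subunits. Atp5b had 508 CPM with FGF2 and NRG1 and 307 CPM with PBS (0.71, interval 0.36 to 1.12), and Sdhd had 127 UMIs with FGF2 and NRG1 and 5 with PBS (1.23, interval 0.22 to 3.13). Fibroblast markers made up 1.63% of the UMIs of the FGF2 and NRG1 cells and 6.98% of those of the PBS cells, so the cells under this name differ between the libraries, and their part in the result was not tested.

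In cluster 7 of the mouse (611 against 307 cells) 11 of 80 members were higher and 2 lower, while 15.2% of all genes were higher and 8.86% lower, with medians of 0.32 and 0.10. The share was 1.65% with FGF2 and NRG1 and 1.33% with PBS. Ndufs7, a core complex I subunit, had 153 CPM with FGF2 and NRG1 and 81.2 CPM with PBS (0.89), and Ndufb7, an accessory subunit, had 284 CPM with FGF2 and NRG1 and 159 CPM with PBS (0.83). Neutrophil markers made up 7.30% of UMIs with FGF2 and NRG1 and 7.13% with PBS, and keratinocyte markers 0.81% with FGF2 and NRG1 and 0.94% with PBS. Among cells with under 1% keratinocyte markers the members' median was 0.27, with 11 called higher. In cluster 6 (566 against 107 cells) 3 of 87 members were higher and 1 lower, while 11.4% of all genes were higher and 9.33% lower. Ndufa11, a complex I accessory subunit, was at 0.77 with 281 CPM with FGF2 and NRG1 and 163 CPM with PBS, and the member furthest apart was Cox6a2.

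Cox6a2 was counted in cluster 6 of the FGF2 and NRG1 library with 291 UMIs and in cluster 6 of the PBS library with 0 UMIs. At least 1 UMI was found in 50 of 566 cells with FGF2 and NRG1, or 8.83% (interval 6.63 to 11.5%), and in 0 of 107 cells with PBS. Counting error alone allows a share of up to 2.80% of PBS cells with a UMI by the limit of 3 counts, and the exact interval reaches 3.39%, which limits cells with a UMI and not cells that express the gene. The median depth was 4292.5 UMIs per cell with FGF2 and NRG1 and 6146 with PBS. In keratinocytes, where the isoform is not known to be expressed, 2 of 934 cells (0.214%) had it with FGF2 and NRG1 at a median depth of 8950.5 UMIs, and 0 of 1005 with PBS at 11117. With all cells thinned to 1000 UMIs, it was found in 5.38% of the FGF2 and NRG1 cells of cluster 6. The whole FGF2 and NRG1 library held 300 Cox6a2 UMIs and the PBS library 0, and cluster 6 held 0 in all spiny mouse libraries.

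The Cox6a2 cells were mostly the cells with Siglech, a receptor that marks plasmacytoid dendritic cells, the blood-borne producers of type I interferon, in which Cox6a2 is known to be expressed in mice. Of the 50 cells with Cox6a2, 46 also had Siglech, and 287 of the 291 Cox6a2 UMIs lay in Siglech cells. Siglech was found in 92% of the 50 cells with Cox6a2 and in 2.52% of the 516 others. Ccr9, a chemokine receptor, was found in 90% of the cells with Cox6a2 and 2.71% of the others, and Spib, a transcription factor of plasmacytoid cells, in 52% of the cells with Cox6a2 and 0.775% of the others. Klk1 was found in 70% of the cells with Cox6a2 and 1.16% of the others, Pacsin1 in 70% of the cells with Cox6a2 and 1.36% of the others, and Dntt in 28% of the cells with Cox6a2 and 0% of the others. The 14 markers used were all in the table, and Bst2 and Irf8, also known from other myeloid cells, were found in 42.1% and 46.9% of the others. Siglech cells were themselves 59 of 566 with FGF2 and NRG1 (10.4%, interval 8.03 to 13.2%) and 2 of 107 with PBS (1.87%, interval 0.227 to 6.59%). The share of Siglech cells was thus higher with FGF2 and NRG1, and the intervals, which cover counting error only, did not overlap. Cox6a2 per Siglech cell could not be compared, since the 2 PBS cells with Siglech had 0 Cox6a2 UMIs between them. How far more of these cells or more Cox6a2 per such cell made the Cox6a2 difference cannot be told here.

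**Figure D5:**
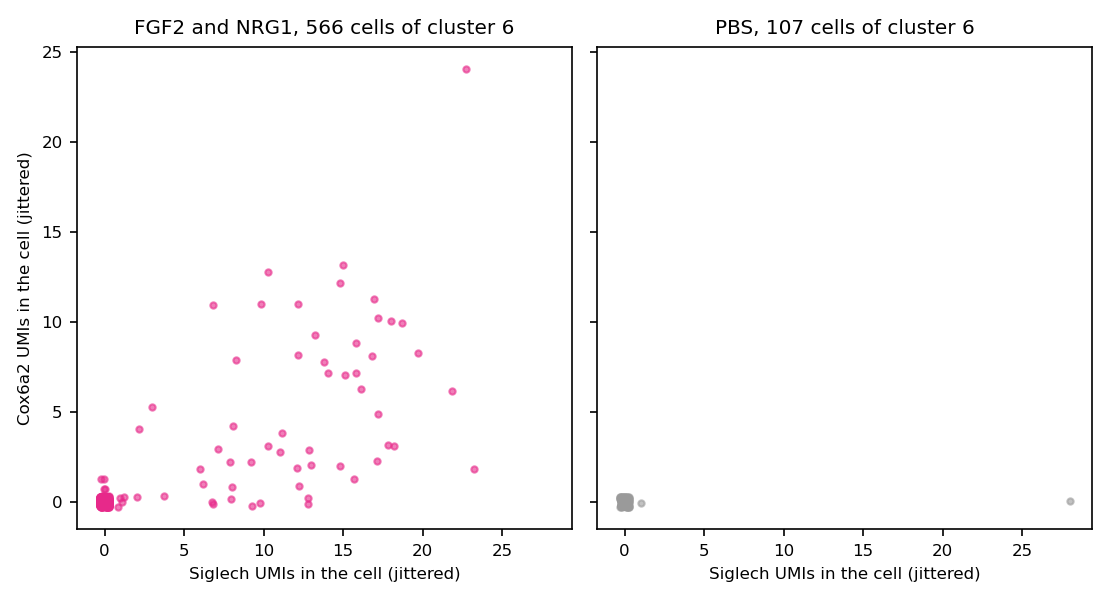
Cox6a2 UMIs (y axis) against Siglech UMIs (x axis) in each cell of cluster 6, with 566 cells of the FGF2 and NRG1 library on the left and 107 of the PBS library on the right; points are jittered to show overlap. Cells with Cox6a2 reach 24 UMIs and nearly all have Siglech, and no PBS cell has Cox6a2.

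All members together made up 2.34% of the UMIs of the 50 cells with Cox6a2 and 2.38% of those of the other 516. Cox6a1, the partner shown above, had 349 CPM in the 50 cells and 429 CPM in the others, so the widely expressed isoform was still counted beside Cox6a2. These 50 cells were picked by Cox6a2 itself, so its own level of 1210 CPM in them is a description only.

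In the spiny mouse Cox6a2 had its highest class elsewhere. In the DMSO library 42 of its 61 UMIs lay in 6 of 91 cells deposited as IRS, the inner root sheath of the hair follicle. The leading genes of that cluster were read in its mouse cells only. The skeletal muscle genes Ckm, Acta1, Tnnt3 and Myh4 had 0 UMIs in those 6 cells. Of the pericyte and smooth muscle genes read, Rgs5, Pdgfrb, Acta2 and Des also had 0 there, and Myh11 had 3. The ErbB2 inhibitor library held 6 Cox6a2 UMIs in all, the FGFR inhibitor library 3 and the ERK inhibitor library 0.

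Cox4i2, the isoform of complex IV subunit 4 known from lung and for its part in oxygen sensing, is a protein-coding gene at chr2:152754173-152765037 on the plus strand of GRCm38. Its highest level in each library where cluster 38, the pericyte and smooth muscle genes' cluster, could be read was in that cluster. It had 125 UMIs there in the ErbB2 inhibitor library, 104 in the FGFR inhibitor library and 83 in the DMSO library, and it was found in 63.8% of ErbB2 inhibitor, 64.4% of FGFR inhibitor and 51.5% of DMSO cells of the cluster. In the mouse it had 39 UMIs with FGF2 and NRG1 (32.7% of cells) and 30 with PBS (44.4%). With FGF2 and NRG1 the chondrocytes held more of its UMIs at a lower level, with 155 of the library's 221 UMIs, 53.2 CPM and 27.8% of cells. With PBS they held fewer UMIs than cluster 38, with 11 UMIs, 32.3 CPM and 19.4% of cells. No other spiny mouse class exceeded 20.2 CPM. The level in cluster 38 was 786 CPM with the ErbB2 inhibitor and 880 CPM with the FGFR inhibitor, against 360.0 CPM with DMSO. The log2 ratio was 1.12 (interval 0.72 to 1.55) for the ErbB2 inhibitor and 1.29 (0.86 to 1.72) for the FGFR inhibitor. With FGF2 and NRG1 it was 200.2 CPM and with PBS 187 CPM (0.09, interval -0.62 to 0.84).

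The marker genes of that cluster differed between these libraries too, but not all in the same direction. Pdgfrb, a pericyte receptor, had 4530 CPM with the ErbB2 inhibitor, 3013 with the FGFR inhibitor and 2234 with DMSO, and Rgs5, also of pericytes, had 1497 CPM with the ErbB2 inhibitor, 1168 with the FGFR inhibitor and 824 with DMSO. Acta2, the smooth muscle actin, had 2951 CPM with the ErbB2 inhibitor, 4299 with the FGFR inhibitor and 3795 with DMSO. Des had 900 CPM with the ErbB2 inhibitor, 1092 with the FGFR inhibitor and 1024 with DMSO. Myh11 had 440 CPM with the ErbB2 inhibitor, 601 with the FGFR inhibitor and 373 with DMSO. Acta2 and Des were thus lower than in DMSO with the ErbB2 inhibitor. Their part in the Cox4i2 ratios was not tested, and the cluster held 58 ErbB2 inhibitor, 59 FGFR inhibitor and 99 DMSO cells. Cox4i1, the common partner, was highest in sebaceous cells in all 6 libraries.

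Ndufa4l2 was counted almost wholly in the mouse, with 1171 UMIs with FGF2 and NRG1 and 1332 with PBS, against 5 in the ERK inhibitor, 55 in the ErbB2 inhibitor, 39 in the FGFR inhibitor and 63 in the DMSO library. In cluster 38 it had 770 CPM with FGF2 and NRG1 and 448 CPM with PBS (0.77, interval 0.37 to 1.21). In IFE basal cells it had 111 CPM with FGF2 and NRG1 and 142 CPM with PBS (-0.35, interval -0.54 to -0.16). In chondrocytes, the ear's cartilage cells, it had 154 UMIs in 248 FGF2 and NRG1 cells and 4 UMIs in 36 PBS cells (1.86, interval 0.78 to 4.06). The direction thus differed between basal keratinocytes and cluster 38, and the difference was not tested.

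Cox7a1, the muscle isoform of complex IV subunit 7A (chr7:30184144-30186078, plus strand, protein-coding), was set apart in spiny mouse sebaceous cells and dendritic cells. Sebaceous cells had 28.0 CPM with the ERK inhibitor, 20.0 with the ErbB2 inhibitor, 19.7 with the FGFR inhibitor and 20.4 with DMSO. The keratinocytes had 1.31 CPM with the ERK inhibitor, 1.55 with the ErbB2 inhibitor, 0.465 with the FGFR inhibitor and 1.27 with DMSO. Dendritic cells had 48.2 CPM with the ErbB2 inhibitor, 49.4 with the FGFR inhibitor and 45.2 with DMSO. In mouse sebaceous cells it had 4.75 CPM with FGF2 and NRG1 and 4.11 CPM with PBS. Cox6b2 was highest in fibroblasts at 27.8 CPM with the ErbB2 inhibitor, 35.8 CPM with the FGFR inhibitor and 22.1 CPM with DMSO. The next class was well below fibroblasts with the ErbB2 and FGFR inhibitors. With DMSO cluster 46 was near them at 21.2 CPM. With FGF2 and NRG1 cluster 44 was highest at 35.7 CPM, above fibroblasts at 32.1 CPM. With PBS fibroblasts were highest at 33.5 CPM, and cluster 6 had 29.5 CPM. These values rest on 7 to 61 UMIs each. Cox8b, the muscle isoform of subunit 8, had at most 16 UMIs in any library.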

How the data were processed

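Libraries were made with 10x Genomics 3' reagents from tissue dissociated by protease and douncing, per the labels' protocols. The submitters' processing notes name Cell Ranger 6.1.1, and the sources used here do not say which reference the spiny mouse reads were aligned to or how cells were filtered. The authors deposited whole-number UMI counts for 20381 genes in 39577 cells, and a table with each cell's library, cluster number and cell type name. The library names of the second table were matched to samples by species and treatment.

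For each library, counts of all cells of a class (at least 30 cells) were added up and scaled to 1000000 UMIs of the class (CPM). Log2 ratios had a pseudocount of 1 UMI, which raises genes of few UMIs in the shallower library, and needed at least 30 UMIs over both libraries; called means past 1.5-fold. Ratio intervals are exact conditional binomial ones and shares have exact Clopper-Pearson ones, at 95%. A count of 0 was given a limit of 3 counts. UMIs are not fully independent molecules, so intervals cover counting error only. Doublets were not called. Of the 47 clusters, those led by genes of another class were given by number, as was cluster 34, whose number was kept after its values were seen. Steps were tested on simulated counts. Python 3.11.15, numpy 2.4.6, scipy 1.17.1 and pandas 2.3.3 were used.

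The members and the lists of pathway and marker genes were chosen with earlier results of these data known. Named are the 3 highest and 3 lowest members of at least 100 UMIs in keratinocytes and in classes of at least 100 cells in both libraries, the isoform pairs, and Ndufs1, Ndufv1, Ndufaf1, Sdha, Sdhb, Uqcrc1, Uqcrfs1, Cox5a, Cox5b, Atp5a1 and Atp5b; members that recur across classes, those called in keratinocytes and the smaller classes of the ERK and FGFR inhibitors were added after their values were seen. GENCODE vM21 gave a record for 92 of the 93 members, not for Atp5md, and a coding transcript length for 91. Alternatives were the UMI minimum, the fold, centring on all genes, removal of mitochondrial, ribosomal and haemoglobin UMIs, thinning to 1000 UMIs per cell, the mean over cells, cluster weights, and removal of the deepest cells.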

Additional observations from a re-analysis of the deposited data

Results flagged for a closer look

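In the spiny mouse, 12 of 13 mitochondrially encoded genes had 0 UMIs in all 4 libraries, but mt-Nd4l, the smallest mitochondrially encoded complex I subunit, summed to 9220 UMIs over these libraries. The ERK inhibitor library held 895 of them, the ErbB2 inhibitor library 3872, the FGFR inhibitor library 1454 and the DMSO library 2999. It was picked out because it is a signal outside the nuclear genes that the comparisons used. Relative to depth it was higher in the ERK inhibitor library, where it was called higher in keratinocytes at a log2 ratio of 1.26 (interval 1.09 to 1.42) and in all 7 single classes where it was measured, at 1.04 to 2.21. With the ErbB2 inhibitor it was called higher in 8 of 20 classes and lower in 1, with a median of 0.51, and with the FGFR inhibitor higher in 1 of 15 and lower in 1, with a median of 0.06. The rest of the mitochondrially encoded part of the pathway could not be read in the spiny mouse.

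With the ERK inhibitor against DMSO the members' median log2 ratio was -1.03 in cluster 7 and 0.261 in IFE basal (cycling), so the same contrast had opposite signs in a pair of cell classes. The difference was not tested, since there was 1 library per group. The cells compared were 55 ERK inhibitor and 227 DMSO cells in cluster 7 and 33 ERK inhibitor and 1344 DMSO cells in IFE basal (cycling). All genes tested had a median of -0.39 in cluster 7 and 0.05 in IFE basal (cycling). With the clusters weighted as in the DMSO library the members' median in IFE basal (cycling) came to 0.09. In that class 12 ERK inhibitor cells and 6 DMSO cells had under 1% keratinocyte markers, and their part in the value was not tested. In cluster 7 the neutrophil markers summed to 28.2% of UMIs in ERK inhibitor cells and 3.11% in DMSO cells, and the keratinocyte markers to 0.15% in ERK inhibitor cells and 5.54% in DMSO cells; their part in the result was not tested.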

How the results depend on the processing

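Of 538 alternative values, 362 stayed near the reported one and 176 moved, a count of calls by more than 1.5 times or a value beyond an interval around it. Outside the keratinocytes, cluster 7 with the ERK inhibitor, the sebaceous shares and Cox6a2, 247 of 354 stayed near and 107 moved. In the keratinocytes, calls of members were few, so small changes moved them. Without a UMI minimum there were 3 lower calls with the ERK inhibitor, 2 lower and 1 higher with the ErbB2 inhibitor, 4 lower and 2 higher with the FGFR inhibitor and 2 higher with FGF2 and NRG1. With at least 100 UMIs the FGFR inhibitor had 1 lower and 0 higher. At the looser fold threshold the ERK inhibitor had 9 lower and 16 higher calls, the ErbB2 inhibitor had 11 lower and 1 higher, and there were 7 lower with the FGFR inhibitor, and 1 lower and 2 higher with FGF2 and NRG1. Past 2-fold there were 1 higher with the ERK inhibitor, 0 lower with the ErbB2 inhibitor, and 1 lower and 0 higher with the FGFR inhibitor. Thinned to 1000 UMIs there were 6 lower with the ERK inhibitor, 0 in either direction with the FGFR inhibitor, and 1 lower and 2 higher with FGF2 and NRG1. By the mean over cells there were 5 lower with the ERK inhibitor (median -0.138), 1 lower and 0 higher with the FGFR inhibitor and 1 lower with FGF2 and NRG1. Centred on all genes, the ErbB2 inhibitor had 1 higher (median -0.0144) and the FGFR inhibitor 1 lower (median -0.0868). With the clusters weighted as in the control, the ErbB2 inhibitor had 0 lower (median -0.0527) and the FGFR inhibitor a median of -0.0993. Without the deepest 5% of cells the FGFR inhibitor had 0 higher and FGF2 and NRG1 had 1 lower.

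In cluster 7 with the ERK inhibitor the higher calls were 0 with at least 100 UMIs, past 2-fold, without the deepest cells and without mitochondrial, ribosomal and haemoglobin UMIs, 2 by the mean over cells, 3 at the looser fold, 4 after centring and 5 without a minimum. Thinned cells gave 35 lower and 2 higher of 56 measured. The median was -0.647 after centring and -1.37 without the mitochondrial, ribosomal and haemoglobin UMIs.

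The sebaceous share without those UMIs was 7.08% with the ERK inhibitor, 7.68% with the ErbB2 inhibitor, 7.65% with the FGFR inhibitor, 7.25% with DMSO, 7.44% with FGF2 and NRG1 and 7.49% with PBS. As a mean over cells it was 3.71%, 4.42%, 4.58%, 4.41%, 4.12% and 4.09% in the same order of libraries, and without the 3 members of most UMIs 4.27%, 4.61%, 4.68%, 4.43%, 4.79% and 4.80%. Cox6a2 was found in 5.38% of thinned FGF2 and NRG1 cells of cluster 6. The cause was not tested for any of these.

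No paired analysis was possible because each group was 1 library, and for the same reason no library could be left out. Cluster weights gave no value in classes of 1 cluster, and leaving out cells rich in keratinocyte markers gave none in keratinocytes or in ERK inhibitor classes. The ERK inhibitor classes of 33 to 66 cells limit what can be read from single members there. Whether a gene's count in the spiny mouse depends on how well its reads match the mouse name was not tested.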
